A study of Mus musculus with 12 samples.

Results

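The mitochondrial ribosomal protein genes are the nuclear genes named Mrpl for the large subunit and Mrps for the small subunit of the ribosome inside mitochondria. They were found by name: 132 probes of the array carried a symbol made of Mrpl or Mrps and a number, and these stood for 76 of the 19057 named genes, 48 of the large and 28 of the small subunit. Each gene was represented by the probe with the highest mean over the 12 hearts in the deposited value table, a choice that does not use the groups. Of the 76 genes, 73 passed the filter on detection, 46 of the large and 27 of the small subunit, among 10104 genes tested. Mrpl19, Mrpl32 and Mrps14 were not detected on any of the 12 arrays and are not described further.

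Total RNA of 12 mouse hearts of strain FVB was hybridised to Illumina bead arrays, 1 heart per array, to ask which transcripts respond to the RNA behind myotonic dystrophy type 1 (DM1), the disease of an expanded CTG repeat in DMPK. Induction was studied in 3 groups: 3 adult EpA960/MCM hearts taken 1 week after RNA with expanded CUG repeats (CUGexp) was switched on, 3 such hearts taken at 72 h, and 3 adult hearts of untreated MCM control mice. The other groups were 1 wildtype heart of embryonic day 14 (E14) and 2 adult wildtype hearts. The induced mice were 2 to 4 months old, carried both the EpA960 and the MCM transgene, and received intraperitoneal tamoxifen at 20 mg/kg in 1 dose or on 5 days in a row, a schedule not given per time point. EpA960 holds the repeat, and MCM is a tamoxifen-activated Cre recombinase that acts in heart muscle. MCM controls had neither EpA960 nor tamoxifen, so the comparisons with them cannot tell drug, transgene and repeat RNA apart. The sources used here give no age for the adult wildtype and MCM mice and no sex.

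The mitochondrial ribosome makes the few proteins encoded by mitochondrial DNA, all of them core subunits of the respiratory chain and ATP synthase. Its own proteins are encoded in the nucleus, made in the cytosol and imported, and they come in part from the bacterial ancestor of mitochondria and in part from later additions found in mitochondria and not in bacteria. Heart muscle is dense in mitochondria and depends on this translation, and human mutations in MRPL3, MRPL44 and MRPS22 are known to cause cardiomyopathy.

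Each array detected 14202 to 16774 of 45281 probes, and replicates correlated at 0.961 to 0.994 over genes. The raw signal at the 1st percentile of probes was 54.4 to 59.1 on the 6 arrays of induced hearts and 63 to 76.2 on the other 6. Xist, which is made from the inactive X, was high on 5 arrays (72 h replicates 1 and 2, MCM replicates 1 and 2, and E14) and low on 7, among them all 3 at 1 week. Markers of cardiomyocytes were high everywhere, with a summed signal of 417949 to 430552 at 1 week, 471032 to 511492 at 72 h and 276363 at E14, against 485755 to 497031 in adult wildtype and 460436 to 508006 in MCM hearts. Signals of other tissues were low. The 3 tested markers of fast skeletal muscle summed to 151 to 560 over the 12 hearts, with Myh4 and Myh1 not detected on any array, and were not called higher at 72 h or 1 week than in MCM hearts, although 3 of 3 were higher at 72 h and 2 of 3 at 1 week than in adult wildtype. The 1 tested lung marker had a signal of 91 at E14 and 29 to 40 in the other hearts and rose at E14 against adult wildtype, with Sftpb and Sftpa1 not detected on any array.

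One week after induction, genes of both subunits were lower than in MCM hearts. Of the 73 genes, 53 fell and 2 rose (limma, adjusted p below 0.05 over all 10104 genes), where 54.2% of all genes tested were called, 26.8% lower and 27.3% higher. In the large subunit 33 of 46 fell and 1 rose, with a median log2 change of -0.55, and in the small subunit 20 of 27 fell and 1 rose, with a median of -0.45. The median over all 10104 genes was 0.00. The 1 week signals of 57 members lay wholly below those of MCM hearts, against 31.9% of all genes. Within the members the change ran from -2.58 to 0.48 on the log2 scale, and its quartiles were -0.70 and -0.24. The -2.58 is the fitted value of Mrpl45, whose probe was not detected at 1 week. With the class of Xist signal as a covariate, 54 fell and 4 rose, where 52.6% of all genes were called.

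Set against the mean of the MCM hearts, the median of the 73 genes was -0.43, -0.54 and -0.51 (log2) in the 1 week hearts, -0.02, -0.22 and 0.04 in the 72 h hearts, -0.60 in the E14 heart and -0.05 and -0.04 in adult wildtype, while the MCM hearts lay at 0.01, 0.02 and -0.00. The 3 hearts at 1 week and the E14 heart stood below every other heart, and 72 h replicate 2 lay between them and the rest. In the 1 week hearts 65, 66 and 67 of the 73 genes were below the MCM mean. The counts were 68 at E14, 39, 60 and 25 at 72 h and 43 and 46 in adult wildtype. The MCM hearts had 36, 31 and 38. They make up that mean, so their counts and medians lie near the middle by construction. The plot of medians by heart shows the subunits side by side.

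**Figure D1:**
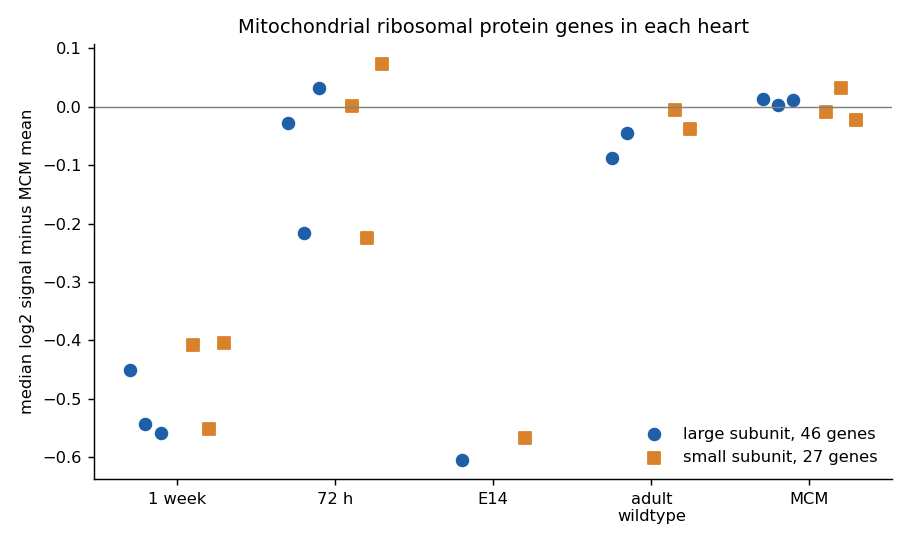
Median over 46 large-subunit genes (circles) and 27 small-subunit genes (squares) of the log2 signal minus the mean of the 3 MCM hearts (vertical axis), 1 point per heart, for 1 week, 72 h, E14, adult wildtype and MCM hearts (horizontal axis). The 1 week and E14 hearts lie between -0.60 and -0.40 for both subunits, and 72 h replicate 2 lies near -0.22.

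Mrpl45, which lies by the tunnel exit and ties the ribosome to the inner membrane, showed the widest difference. Its log2 signals were 5.49, 5.64 and 5.88 at 1 week, where its probe was not detected on any array, against 8.59, 7.87 and 8.30 in MCM hearts. The groups were far apart. The 1 week signal is only a bound. The fall is therefore given as at least 2.93-fold, the MCM mean against the lowest signal that counted as detected. The adjusted p of 6.85e-06 (limma) is that of the fitted change of -2.58, and the bound itself was not tested. Mrpl51, a protein added in mitochondria, had 8.16, 8.41 and 7.86 at 1 week, against 9.47, 9.39 and 9.49 in MCM hearts, with no overlap. It fell 2.47-fold (log2 change -1.31 ± 0.16 SE, adjusted p = 5.54e-05), although its probes differed in size, as given below. Mrpl35, of the bacterial bL35 family, had 8.06, 7.85 and 7.84 at 1 week and 9.08, 9.03 and 9.35 in MCM hearts. It fell 2.36-fold (-1.24 ± 0.20, adjusted p = 0.000373), again with no overlap of the groups.

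Mrpl30 and Mrpl1, counterparts of bacterial L30 and L1, followed among large-subunit genes. Mrpl30 had 12.23, 12.39 and 12.12 at 1 week, against 13.38, 13.44 and 13.22 in MCM hearts, a 2.14-fold fall. Mrpl1, whose bacterial counterpart forms the mobile stalk at the exit site, had 10.54, 10.54 and 10.42 at 1 week and 11.37, 11.35 and 11.54 in MCM hearts, a 1.89-fold fall. For both, all 3 hearts at 1 week lay below all 3 MCM hearts (adjusted p = 0.000121 and 8.74e-05).

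In the small subunit the widest falls were in proteins that bacteria lack. Mrps35 had 10.84, 11.01 and 10.79 at 1 week, against 12.05, 12.19 and 12.23 in MCM hearts, a 2.42-fold fall (-1.28 ± 0.17, adjusted p = 9.67e-05). Mrps27, an RNA-binding protein with pentatricopeptide repeats, had 7.64, 7.60 and 7.83 at 1 week and 8.70, 9.09 and 8.45 in MCM hearts, a 2.09-fold fall (adjusted p = 0.00104). Mrps25 had 8.73, 8.68 and 8.47 at 1 week and 9.68, 9.49 and 9.58 in MCM hearts, a 1.94-fold fall (adjusted p = 0.00135). None of the 3 genes had overlapping groups.

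A pair of genes, 1 per subunit, went the other way (2 of 73, where 27.3% of all genes were higher). Mrpl20, the counterpart of a bacterial protein needed early in large-subunit assembly, had log2 signals of 11.71, 11.53 and 11.59 at 1 week, against 11.10, 11.11 and 11.20 in MCM hearts. It rose 1.39-fold (0.48 ± 0.09, adjusted p = 0.00078). Mrps18c had 11.73, 11.79 and 12.07 at 1 week and 11.41, 11.54 and 11.40 in MCM hearts, and rose 1.33-fold (0.41 ± 0.10, adjusted p = 0.00434). In both genes every 1 week heart lay above every MCM heart, and each had 1 kept probe. Both were also higher at 1 week than in adult wildtype hearts (0.45 for Mrpl20, adjusted p = 0.00298, and 0.43 for Mrps18c, adjusted p = 0.00758).

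**Figure D2:**
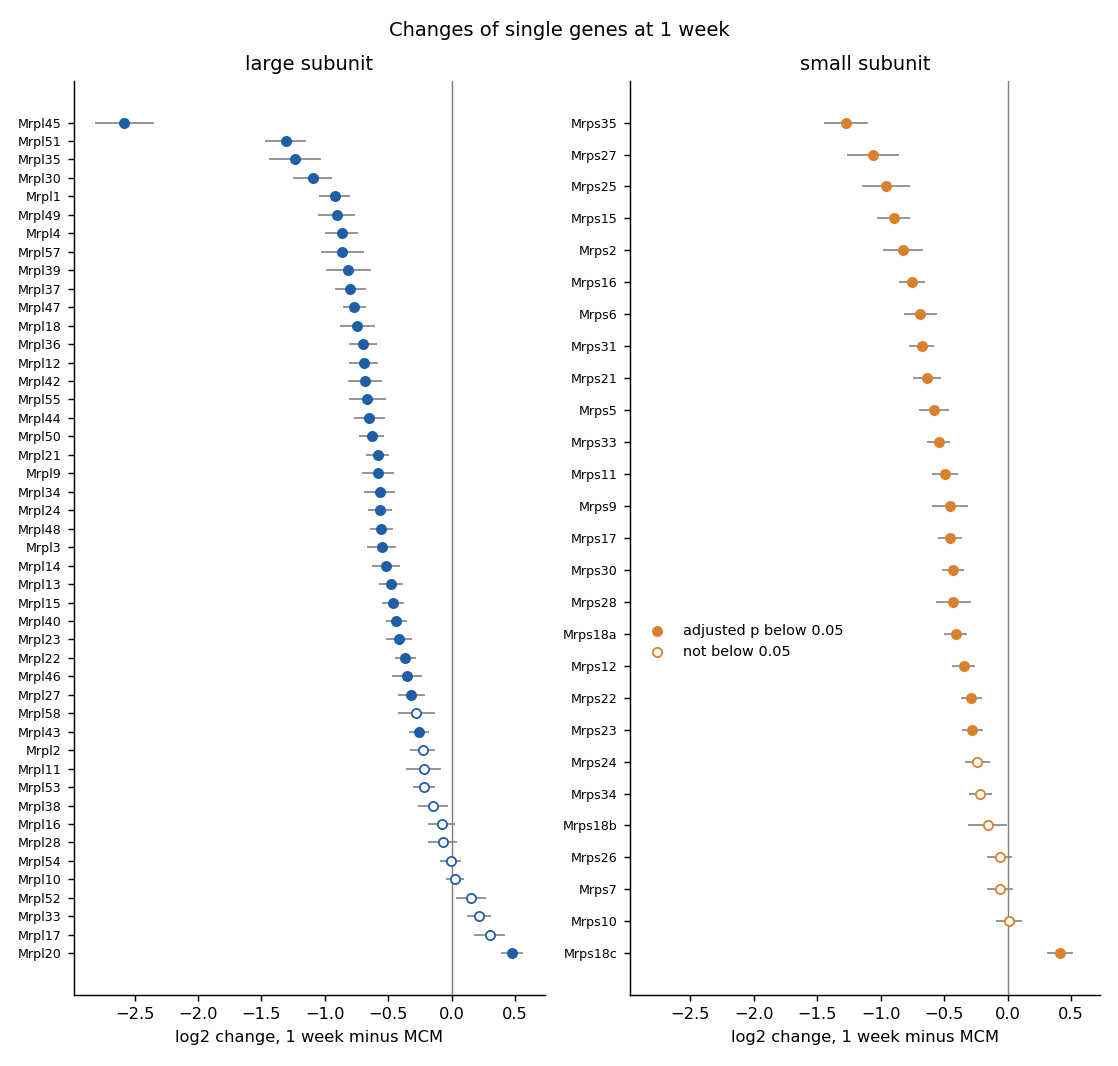
Log2 change at 1 week minus MCM (horizontal axis) for each of 46 large-subunit genes (left panel) and 27 small-subunit genes (right panel), ordered by change. Points are fitted changes, lines are 1 standard error, and filled points passed at an adjusted p below 0.05. Mrpl45 stands at -2.58, a fitted value from signals not detected at 1 week, and Mrpl20 and Mrps18c are the filled points to the right of 0.

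Bacterial S18 has 3 paralogues in mitochondria. Mrps18a sits in the large subunit in the known structure despite its name, and Mrps18b and Mrps18c occupy different places in the small subunit. Mrps18a had 11.46, 11.35 and 11.50 at 1 week and 11.82, 11.94 and 11.78 in MCM hearts, a 1.33-fold fall with no overlap (adjusted p = 0.00277). Mrps18b had 11.22, 11.49 and 11.40 at 1 week and 11.47, 11.36 and 11.75 in MCM hearts, overlapping groups (-0.16 ± 0.16, adjusted p = 0.419). With Mrps18c higher, the set held 1 gene that fell, 1 that rose and 1 that did not pass. The difference between paralogues was not tested.

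The stalk recruits translation factors. Mrpl12, the stalk protein counterpart of bacterial L7/L12, had 12.52, 12.36 and 12.36 at 1 week, against 13.16, 13.04 and 13.12 in MCM hearts, a 1.62-fold fall (adjusted p = 0.000326). Mrpl10, to which Mrpl12 binds, had 11.88, 11.85 and 11.80 at 1 week and 11.83, 11.80 and 11.84 in MCM hearts, overlapping groups that differed by 0.02 ± 0.07 (adjusted p = 0.809). Mrpl11 at the stalk base had a change of -0.22 ± 0.14 that did not pass (adjusted p = 0.203). Differences between these genes were not tested.

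Values follow for further members with known roles. Mrpl3 fell 1.47-fold (adjusted p = 0.00149), Mrpl44 1.57-fold (adjusted p = 0.000928), Mrps16 1.69-fold (adjusted p = 0.000108) and Mrps22 1.22-fold (adjusted p = 0.0117). For these 4 genes the 1 week and MCM hearts did not overlap. The call of Mrpl44 was lost against adult wildtype hearts (-0.32, adjusted p = 0.0722). Mrps28, related to bacterial S1, fell 1.34-fold (adjusted p = 0.0194), a call lost without 1 week replicate 2 (log2 change -0.36), without MCM replicate 1 (-0.33) or against adult wildtype hearts (-0.25, adjusted p = 0.187). Mrpl47, the counterpart of bacterial L29 at the tunnel exit, fell 1.70-fold (adjusted p = 4.33e-05), and Mrps30, a large-subunit protein in the structure, fell 1.35-fold (adjusted p = 0.00113). Mrps24, the counterpart of bacterial S3 (-0.24 ± 0.10, adjusted p = 0.0601), and Mrpl58, a peptidyl-tRNA hydrolase built into the large subunit (-0.28 ± 0.14, adjusted p = 0.123), did not pass. Mrps24 passed with median centring (-0.32), the authors' value table (-0.25), array weights (-0.23) or without 72 h replicate 2 or 3 (-0.24 each), and Mrpl58 passed with array weights (-0.37) or without 1 week replicate 1 (-0.41).

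Proteins classed here as having a bacterial counterpart and as added in mitochondria gave similar counts, with 31 of 44 and 22 of 29 lower at 1 week and medians of -0.47 and -0.55. The counts depend on the classing of single genes, such as Mrpl55 (-0.66), counted here as added in mitochondria. The 2 genes that rose both belong to the bacterial kind. Counting Mrps18a and Mrps30 with the large subunit, where the structure places them, gave 35 of 48 lower in the large and 18 of 25 in the small subunit. The 18 genes that did not pass at 1 week ranged from -0.28 (Mrpl58) to 0.30 (Mrpl17, adjusted p = 0.0589), and 10 of them lay within 0.20 of 0.

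More than 1 probe bears on 33 of the 76 genes. Of 39 other kept probes, in 26 genes, 32 had the sign of the probe that stood for the gene at 1 week. Mrpl15 was the 1 gene with opposite calls: its main probe lay at -0.47 and another at 1.29, while the other 4 lay between -1.13 and -0.40. The probe that stood for Mrps7, a protein of the small subunit's head, changed by -0.06 ± 0.10 (adjusted p = 0.633), and its second probe fell by 0.90 (adjusted p = 6.47e-05). Mrpl51 had other probes at -0.25 and -1.37. Mrpl13 had a second probe at 0.07 beside its main value of -0.48, Mrps26 had -0.38 beside -0.06, and Mrpl33 had 0.50 (adjusted p = 0.00193) beside 0.21. A count for those genes therefore depends on the probe.

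RefSeq promoters (build GRCm38.p6, from 250 bases before to 50 after a gene's start, 1 per gene) matched 67 of the 76 genes. They were searched on both strands for 7 motifs. The first is that of NRF1, a factor of many nuclear genes for mitochondria, which reads GCGCA, then any base, then GCGC. The second is CCGGAAG, known from ETS factors such as GABP. The third is ATGGCGG, known from YY1. CCAAT is known from NF-Y, and CACGTG is the E-box. AAGGTCA is bound by estrogen-related receptors, and TATAAA is the TATA box. At least 1 of the first 3 was in 42 of 67 members, 62.7%, against 17.3% of the promoters of all 27025 genes, which also include noncoding genes. Singly, the NRF1 letters were in 13 members (19.4%, against 5.19%), CCGGAAG in 26 (38.8%, against 9.93%) and ATGGCGG in 13 (19.4%, against 4.69%). CCAAT was in 25 (37.3%, against 41.1%), CACGTG in 5 (7.46%, against 8.09%), AAGGTCA in 4 (5.97%, against 5.38%) and TATAAA in 5 (7.46%, against 15.7%). Letters of different motifs overlapped in 1 member promoter. These matches describe letters and say nothing of whether a factor binds.

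Of the 42 members with 1 of the first 3 motifs, 33 fell at 1 week and 7 did not pass, and of all 67 members with a promoter 48 fell, 2 rose and 15 did not pass. The promoters of the 3 large-subunit genes with the widest falls are shown because each carries another of these motifs, with that of Mrps18c as a gene that rose. Matches are in capitals, and each sequence runs 5′ to 3′ on the gene's strand.
Mrpl45, chr11:97315466-97315765, plus strand: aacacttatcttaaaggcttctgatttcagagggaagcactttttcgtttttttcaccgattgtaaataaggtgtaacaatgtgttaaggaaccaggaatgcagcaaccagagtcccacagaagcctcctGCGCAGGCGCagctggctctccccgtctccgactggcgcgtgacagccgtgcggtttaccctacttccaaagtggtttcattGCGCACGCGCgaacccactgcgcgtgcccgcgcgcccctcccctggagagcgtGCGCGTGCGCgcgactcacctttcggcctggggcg
Mrpl51, chr6:125191950-125192249, plus strand: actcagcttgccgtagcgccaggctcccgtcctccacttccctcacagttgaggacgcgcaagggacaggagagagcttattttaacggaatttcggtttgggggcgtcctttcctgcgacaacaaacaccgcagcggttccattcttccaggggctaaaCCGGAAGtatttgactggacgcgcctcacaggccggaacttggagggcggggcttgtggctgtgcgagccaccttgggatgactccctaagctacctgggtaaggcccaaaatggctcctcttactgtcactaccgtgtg
Mrpl35, chr6:71823735-71824034, minus strand: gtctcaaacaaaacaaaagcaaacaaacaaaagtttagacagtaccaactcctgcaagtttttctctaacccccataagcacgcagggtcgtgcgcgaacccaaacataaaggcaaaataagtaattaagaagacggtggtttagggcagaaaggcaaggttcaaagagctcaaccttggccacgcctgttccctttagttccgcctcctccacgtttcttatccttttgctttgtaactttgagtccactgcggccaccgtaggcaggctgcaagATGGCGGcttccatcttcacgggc
Mrps18c, chr5:100798509-100798808, plus strand: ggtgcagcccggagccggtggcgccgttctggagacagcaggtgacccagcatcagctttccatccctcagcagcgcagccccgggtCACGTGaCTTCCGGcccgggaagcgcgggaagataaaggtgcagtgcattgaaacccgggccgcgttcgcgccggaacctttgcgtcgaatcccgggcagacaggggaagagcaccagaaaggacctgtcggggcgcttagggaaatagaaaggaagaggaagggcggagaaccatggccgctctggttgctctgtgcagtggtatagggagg
Mrpl45 holds the NRF1 letters 3 times, at -120, -38 and 16 from the start. Mrpl51 holds CCGGAAG at -90 and Mrpl35 holds ATGGCGG at 27. Mrps18c, which rose, also holds an ETS match (CTTCCGG on the printed strand, at -156) beside an E-box at -163.

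Other cell types also differed in these hearts, in a comparison of 1 week with MCM where 27.3% of all genes were higher and 26.8% lower. At 1 week all 12 tested macrophage and leukocyte markers rose (summed signal 39176 to 45080, against 8294 to 9057 in MCM hearts), though Ptprc and Itgam were not detected on any array, and 5 of 10 fibroblast markers rose (45480 to 51241, against 34206 to 42535 in MCM hearts). The 3 of 3 erythroid markers that rose (56597 to 59770, against 23212 to 37944 in MCM hearts) were also higher in adult wildtype than in MCM hearts (67028 to 69876 in adult wildtype). None of them was called at 1 week against adult wildtype. Of 9 endothelial markers 4 fell and 1 rose (24787 to 27276, against 26652 to 27784 in MCM hearts), and of 8 smooth muscle and pericyte markers 4 fell and 1 rose (48003 to 55734, against 20474 to 37978 in MCM hearts), with medians of -0.28 and -0.50. Of 11 cardiomyocyte markers 5 fell, with Myh6 lower by 0.99 and Ckmt2 by 0.79 on the log2 scale, and 6 did not pass. The cardiomyocyte sum was 417949 to 430552 at 1 week, against 460436 to 508006 in MCM hearts. In whole hearts, fewer cells of a type and less RNA per cell cannot be told apart, and the part of cell makeup in the change of the mitochondrial ribosomal genes was not tested.

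At 72 h none of the 73 genes passed against MCM hearts, where 0.297% of all genes were called, 0.0891% lower and 0.208% higher. The medians were -0.09 for the large and -0.06 for the small subunit, and 55 of 73 changes were below 0, against 5108 of 10104 over all genes. Mrpl1 (-0.30), Mrpl11 (-0.39) and Mrpl35 (-0.46) had an unadjusted p below 0.05. These are 3 of 73 members, a smaller share than the 762 of 10104 genes with such a p. Mrpl35 had 8.87, 8.18 and 9.03 at 72 h, against 9.08, 9.03 and 9.35 in MCM hearts, and its replicate 2 was the lowest. That heart was below the MCM mean in 60 of 73 genes, against 39 and 25 in 72 h replicates 1 and 3. It also had the highest macrophage and leukocyte sum of its group, whose range was 8282 to 23949, and the part of that in its values was not tested. The count at 72 h was 0 with and without that heart, so the count cannot show the heart's part in the changes below 0. Medians of the 73 genes against the MCM mean were -0.02 and 0.04 in 72 h replicates 1 and 3 and -0.22 in replicate 2.

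Between the times, 51 genes were lower and 3 higher at 1 week than at 72 h, where 45.6% of all genes differed, 22.4% lower and 23.2% higher. The large subunit had 33 of 46 lower (median -0.49) and the small 18 of 27 (-0.38). Mrpl45 had 8.04, 7.37 and 8.12 at 72 h, above all 3 values at 1 week given before. It was at least 2.21-fold lower at 1 week. The adjusted p of 3.10e-05 (limma) is that of its fitted change of -2.17, not of the bound. Mrps35 had 12.07, 11.44 and 12.29 at 72 h, so its replicate 2 lay between the other 72 h hearts and the 1 week hearts (-1.06 ± 0.17, adjusted p = 0.000496). The 3 genes that were higher were Mrpl20 (0.40, adjusted p = 0.00318), Mrps18c (0.40, adjusted p = 0.00614) and Mrpl17, another bacterial-type large-subunit protein. Mrpl17 had 11.92, 11.63 and 11.94 at 1 week and 11.28, 11.62 and 11.34 at 72 h (0.42 ± 0.12, adjusted p = 0.0164), a call lost without 72 h replicate 1 (0.35) or without 1 week replicate 1 (0.37) or 3 (0.36).

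Adult wildtype and MCM hearts, both without induction, differed in 2 of the 73 genes, where 5.82% of all genes were called, 3.16% lower and 2.66% higher. Mrps12, a protein of the decoding site, had 11.19 and 11.07 in adult wildtype, against 12.14, 12.11 and 11.87 in MCM hearts, and was 1.88-fold lower (-0.91 ± 0.10, adjusted p = 0.000267). Mrpl27 had 10.95 and 10.69 in adult wildtype and 11.29, 11.21 and 11.34 in MCM hearts (-0.46 ± 0.12, adjusted p = 0.0472). The call of Mrpl27 was lost in 9 of 11 fits that left out 1 array, with changes between -0.59 and -0.32. The induced hearts, at 11.76, 11.69 and 11.65 at 1 week and 11.98, 12.02 and 12.10 at 72 h, had more Mrps12 than the adult wildtype hearts.

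The direction of Mrps12 thus depended on the control. It was lower at 1 week than in MCM hearts (-0.34 ± 0.09, adjusted p = 0.00734) and higher than in adult wildtype (0.56 ± 0.10, adjusted p = 0.00089), and at 72 h it differed by -0.01 and 0.90 from these controls (adjusted p = 0.991 and 0.000214). Its second probe gave -0.72 at 1 week against MCM (adjusted p = 4.83e-05), -0.07 against adult wildtype (adjusted p = 0.579) and -0.65 between adult wildtype and MCM hearts (adjusted p = 0.00208). Mrps12 was the 1 of 73 genes called in the comparison of 72 h with adult wildtype hearts, where 7.56% of all genes were called, 3.91% higher and 3.65% lower. At 1 week, 45 genes were lower and 5 higher than in adult wildtype, where 49.1% of all genes were called, 24.5% in each direction.

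Mrps12 shares its promoter region with Sars2, the mitochondrial seryl-tRNA synthetase. The genes start 146 bases apart on opposite strands in RefSeq, and their 300-base promoter windows share 246 bases. The window is shown on the strand of Mrps12, with motif letters in capitals.
Mrps12, chr7:28741772-28742071, minus strand: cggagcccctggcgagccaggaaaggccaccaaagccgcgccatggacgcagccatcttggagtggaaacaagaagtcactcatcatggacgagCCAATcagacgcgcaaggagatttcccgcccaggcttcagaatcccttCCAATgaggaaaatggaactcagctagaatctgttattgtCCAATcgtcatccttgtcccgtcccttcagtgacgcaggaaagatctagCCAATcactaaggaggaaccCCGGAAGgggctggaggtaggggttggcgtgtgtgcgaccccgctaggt
It holds CCAAT 4 times, at -156, -108, -68 and -19, and CCGGAAG at 2. Sars2 had 7.40 and 7.36 in adult wildtype, against 8.29, 8.56 and 8.03 in MCM hearts, and was lower there as well (-0.92 ± 0.24, adjusted p = 0.0443). At 1 week it had 7.21, 6.74 and 7.40, lower than in MCM hearts by 1.18 (adjusted p = 0.000686) and not called against adult wildtype (-0.26, adjusted p = 0.384). The pair is shown beside the genes with the widest changes in the plot of 6 genes by heart.

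**Figure D3:**
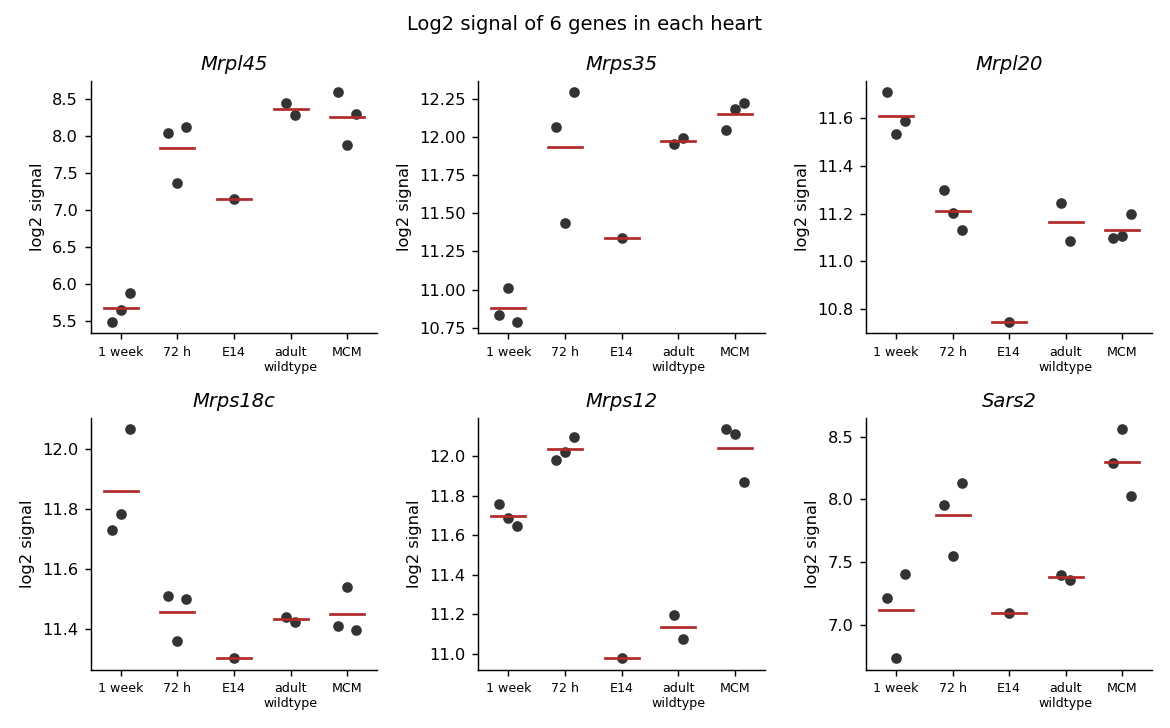
Log2 signal (vertical axis, a scale of its own for each gene) of Mrpl45, Mrps35, Mrpl20, Mrps18c, Mrps12 and Sars2 in each heart of the 1 week, 72 h, E14, adult wildtype and MCM groups. Points are hearts and red lines are group means; Mrpl45 lies at 5.49 to 5.88 at 1 week, below all other hearts, and Mrps12 lies at 11.07 and 11.19 in adult wildtype hearts, below all induced and MCM hearts.

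The embryonic heart had lower signals than adult hearts in the same gene family. Against adult wildtype, 44 of 73 genes fell and 1 rose at E14, where 57.2% of all genes were called, 27.2% lower and 30% higher. In the large subunit 33 of 46 fell (71.7%, median -0.62), and in the small subunit 11 of 27 fell and 1 rose (40.7% lower, median -0.39). The E14 group is 1 array whose spread is taken from the other groups, and the difference between subunits was not tested. Set against the MCM mean, the E14 medians were -0.60 for the large and -0.57 for the small subunit. When each array was centred on its median in place of quantile normalization, the median of all genes moved to 0.25, and those of the subunits were -0.58 and -0.26. With the class of Xist signal, which is high at E14 and low in both adult wildtype hearts, as a covariate, 31 members fell and none rose, and the share of all genes called was 48.6%.

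Mrps23, a small-subunit protein added in mitochondria, had 11.39 at E14, against 13.05 and 13.05 in adult wildtype, a 3.17-fold fall (-1.66 ± 0.12, adjusted p = 4.92e-07), and its second probe gave -1.71. It was 1.21-fold lower at 1 week than in MCM hearts (adjusted p = 0.0122). Mrpl35 had 7.26 at E14 and 8.70 and 9.01 in adult wildtype, a 3.02-fold fall, and Mrpl51 had 8.01 at E14 and 9.54 and 9.46 in adult wildtype, a 2.82-fold fall (adjusted p = 0.000841 and 0.000253). Both are also among the widest falls at 1 week. Mrps18a fell 2.44-fold (10.59, against 11.89 and 11.87, adjusted p = 9.81e-06) and Mrps18b 2.02-fold (10.49, against 11.53 and 11.49, adjusted p = 0.00291), while Mrps18c had 11.30 at E14 and 11.44 and 11.42 in adult wildtype and did not pass (adjusted p = 0.48).

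Further falls at E14 were Mrpl45 (2.32-fold, adjusted p = 0.00968, a call lost with the Xist class as a covariate, -0.97, adjusted p = 0.0717), Mrpl4 (2.30-fold), Mrpl44, an RNase III-like protein (2.28-fold), and Mrpl1 (2.27-fold), with adjusted p of 0.000235, 0.000173 and 0.000177 for the last 3. Mrpl20, which was higher at 1 week, had 10.75 at E14 and 11.24 and 11.08 in adult wildtype, and fell 1.33-fold (adjusted p = 0.017). The gene that rose was Mrps22, with 11.03 at E14 against 10.69 and 10.71 in adult wildtype (0.33 ± 0.12, adjusted p = 0.0397). Its call did not hold in the fit with the Xist class (0.35), with no detection filter (0.33) or without either adult wildtype replicate (0.32 and 0.34), 72 h replicate 1, 1 week replicate 3 or MCM replicate 1 (0.33 each). Cardiomyocyte markers were lower at E14, 7 of 11, and macrophage markers too, 5 of 12 (summed signal 3792, against 8649 to 9036 in adult wildtype), where 27.2% of all genes were lower. The part of these cell types in the values of the members was not tested.

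The comparisons of 1 week with MCM and of E14 with adult wildtype share no array. However, 1 model gave both the same estimate of each gene's spread, so their calls are not independent. Falls in both were found for 35 genes, 66% of the 53 at 1 week and 79.5% of the 44 at E14. Among all genes tested the 1331 falls in both were 49.1% of 2709 and 48.5% of 2745. The base rates differ, since 72.6% of members fell at 1 week and 60.3% at E14, against 26.8% and 27.2% of all genes. The 66% thus stands beside 60.3% of all members at E14, and the 79.5% beside 72.6% at 1 week. Sharing beyond these rates was not tested. Across the 73 members the changes correlated at 0.48 (Pearson) and across all 10104 genes at 0.289, a description only, since genes of 1 array share its normalization. The 18 genes that fell at 1 week and were not called lower at E14 included 12 with an Mrps symbol (Mrps2, Mrps5, Mrps6, Mrps11, Mrps12, Mrps15, Mrps17, Mrps22, Mrps27, Mrps30, Mrps33 and Mrps35), of which Mrps22 was called higher at E14. Of these 12, only Mrps11, Mrps22 and Mrps33 had an E14 change above 0, while Mrps35 lay at -0.64 and Mrps6 at -0.41 without a call. The 9 genes that fell at E14 and were not called lower at 1 week were Mrpl2, Mrpl16, Mrpl20, Mrpl28, Mrpl53, Mrpl58, Mrps18b, Mrps24 and Mrps34. The E14 call of Mrps24 was lost with the Xist class (-0.43) or without adult wildtype replicate 1 (-0.44). That of Mrpl58 was lost with median centring (-0.44) or without adult wildtype replicate 2 (-0.61). Whether the change of a gene differed between the comparisons was not tested. The scatter of both changes shows the members one by one.

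**Figure D4:**
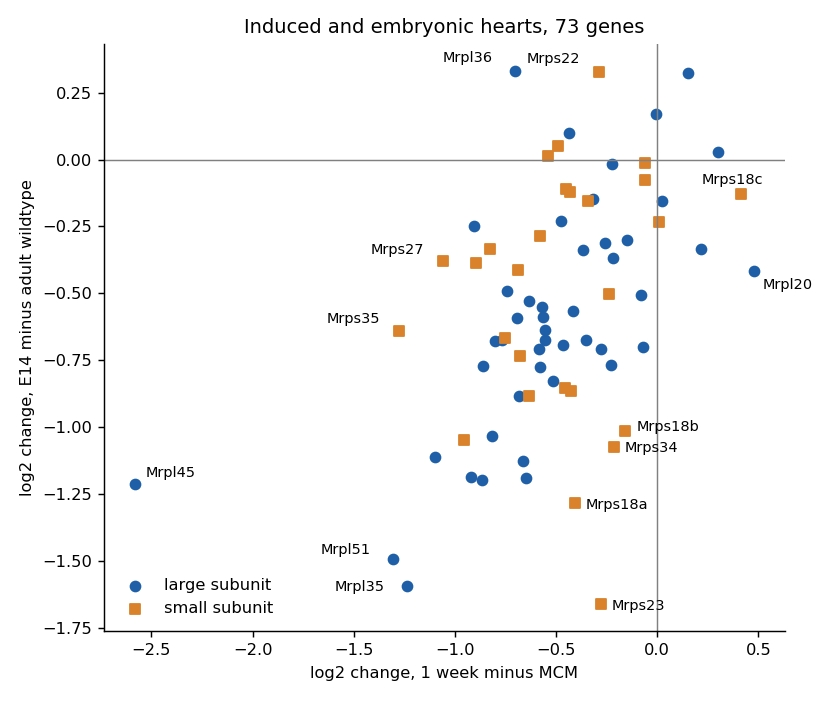
Log2 change at E14 minus adult wildtype (vertical axis) against log2 change at 1 week minus MCM (horizontal axis) for 73 genes, circles for the large and squares for the small subunit. Mrpl35 and Mrpl51 are low on both axes. Mrpl45 is lowest on the horizontal axis at -2.58, a fitted value from signals not detected at 1 week. Mrps23 is lowest on the vertical axis at -1.66, and Mrpl20 is higher at 1 week and lower at E14.

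Other genes of mitochondrial translation were lower at 1 week as well. The counts stand against 26.8% of all genes lower and 27.3% higher at 1 week, and 27.2% lower and 30% higher at E14. Of 4 tested ribosomal proteins without an Mrp symbol, Ptcd3 (-0.98), Chchd1 (-0.42) and Gadd45gip1 (-0.57) fell, and Dap3, a GTP-binding protein of the small subunit, did not pass (-0.12, adjusted p = 0.294). Of 21 genes for ribosome assembly and rRNA modification 14 fell and 1 rose. The falls were led by Mrm1, an rRNA methyltransferase, with 9.22, 8.97 and 8.93 at 1 week against 10.46, 10.64 and 10.29 in MCM hearts (-1.43, adjusted p = 1.49e-05), by Mettl17 (-1.22) and by the mRNA-stabilising protein Lrpprc (-1.16), and the rise was Mpv17l2 (0.62, adjusted p = 0.00129). At E14, 13 of these 21 fell and none rose, and Mpv17l2 was among the falls (-0.68).

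Translation factors had 11 of 14 lower at 1 week and none higher. Mtif2, the initiation factor, had 9.40, 9.23 and 9.24 at 1 week against 10.51, 10.43 and 10.49 in MCM hearts (-1.19, adjusted p = 1.57e-05), and the release factor Mtrf1l (-0.97) and the recycling factor Gfm2 (-0.96) fell with it. Taco1, an activator of COX1 translation, was at least 1.40-fold lower. Of 15 genes for mitochondrial aminoacyl-tRNA synthesis 10 fell, including Cars2 (-0.79) and Gatb (-0.89), and of 10 genes for mitochondrial DNA transcription and upkeep 8 fell, including the elongation factor Tefm (-1.02), the helicase Twnk (-0.82) and Tfam (-0.74). At E14 the corresponding counts were 8 lower and 1 higher of 14, 7 lower and 2 higher of 15, and 5 lower of 10. The E14 rise among the factors was Guf1, a counterpart of the bacterial factor LepA, at least 3.41-fold higher.

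Regulators known for nuclear genes of mitochondria went both ways at 1 week, with 5 of 10 lower and 3 higher, where 26.8% of all genes were lower and 27.3% higher. The coactivator Ppargc1b had 9.91, 10.06 and 9.98 at 1 week, against 12.24, 12.14 and 12.53 in MCM hearts (-2.32, adjusted p = 4.04e-07), and Ppargc1a had 10.64, 10.36 and 10.53, against 12.32, 12.44 and 12.22 (-1.81, adjusted p = 2.29e-06). The nuclear receptors Esrrg (-1.29) and Esrra (-1.02) fell, and Ppara, not detected at 1 week, was at least 7.50-fold lower. Nrf1 had 9.33, 9.21 and 9.46 at 1 week, against 8.46, 8.46 and 8.44 in MCM hearts, and rose (0.88, adjusted p = 9.23e-05), as did Pprc1 (0.63, adjusted p = 0.0133). Myc was called higher too, with its probe not detected on any array of either group. The GABP subunits Gabpa (0.11) and Gabpb1 (0.09) did not pass, and Yy1 was not detected on any array. At E14, Nrf1 (0.96), Pprc1 (1.21) and Myc were called higher and 6 of the 10 lower. At 72 h no gene of these 6 lists passed.

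Ribosomal proteins of the cytosol ran the other way against the control hearts. Of 53 tested genes, 29 rose and 2 fell at 1 week (median 0.27), where 27.3% of all genes rose and 26.8% fell. At E14, 46 rose and 1 fell (median 0.72), where 30% of all genes rose and 27.2% fell. Rpl3l, a paralogue known from striated muscle, fell in both (-1.63 at 1 week, adjusted p = 5.67e-05, and at E14, adjusted p = 1.41e-09), and Rpl7a fell at 1 week (-0.39, adjusted p = 0.0202). At 72 h none of the 53 passed (median 0.14, summed signal 875681 to 1066443). Between 72 h and 1 week only 11 rose and 4 fell (median 0.14), where 23.2% of all genes rose and 22.4% fell. The sum was 1011277 to 1043804 at 1 week, against 875033 to 900918 in MCM hearts, and 1308046 at E14, against 846309 to 862821 in adult wildtype.

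**Figure D5:**
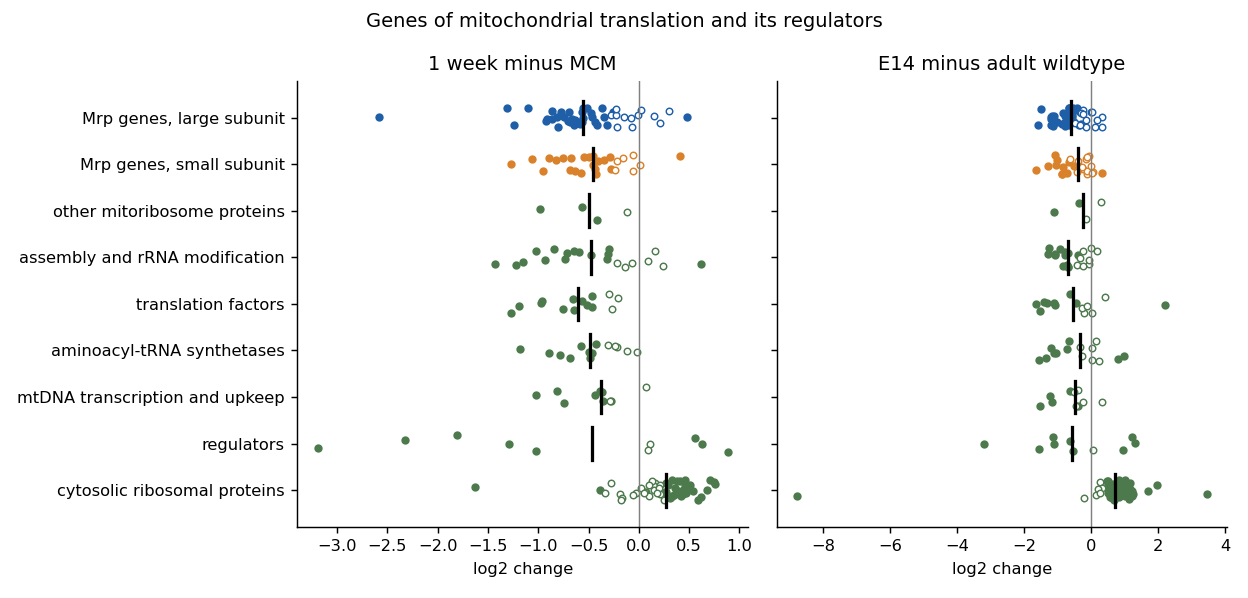
Log2 change at 1 week minus MCM (left panel) and E14 minus adult wildtype (right panel, horizontal axes) of each tested gene of the 2 subunits, 6 lists of partner genes and the cytosolic ribosomal proteins. Each point is a gene, filled where it passed at an adjusted p below 0.05, and black lines are list medians, which lie below 0 for each mitochondrial list and the regulators and above 0 (0.27 and 0.72) for the cytosolic ribosomal proteins.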

How the data were processed

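Total RNA of 12 mouse hearts in 5 labelled groups was measured, 1 Illumina array per heart. The array files gave, per the file headers, 3 values for each probe: the mean bead signal (a linear intensity, neither normalized nor background-subtracted), a bead number and a detection score, a fraction between 0 and 1. The authors' deposited value table held 1 quantile-normalized intensity per probe and array, linear and not centred (column medians 129.5 to 129.8). Its quantile mapping, recomputed with 100 quantiles and adult wildtype replicate 1 as master, linked 45281 of 45281 probes to the array files within 0.001.

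Symbols came from the platform annotation and RefSeq (GRCm38.p6): 34885 probes had 1 symbol, 18 several and 10378 none. Signals were background-corrected (nec of limma 3.58.1 in R 4.3.3, detection p as 1 minus the score, offset 16), quantile-normalized and taken to log2. A probe was kept if some group had a detection p below 0.01 on all its arrays. A single limma model over 12 arrays (group means, eBayes with an intensity trend, 7 residual degrees of freedom, tested on simulated data) gave all adjusted p values (Benjamini-Hochberg over 10104 genes, threshold 0.05). The number of arrays limits the precision; 41 or 42 beads stood behind the median probe. A value after ± is a standard error.

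The labels do not say that the samples are separate litters or experiments, so p-values measure the spread between these hearts. Named genes were the 8 members with the widest called change per direction in a comparison, every called member where 5 or fewer moved one way, and a list of members with known roles, and from other lists the 3 widest called per direction; Mrpl17, Mrpl27, Mrpl15, Mrpl13, Mrpl33, Mrps26, Sars2, Esrra, Esrrg, Gabpa and Gabpb1 were partly chosen after their values were seen. The members, lists and rules were chosen with earlier results of these data known. For a gene not detected on any array of a group the fold is a bound, against the higher of its own signal and the lowest detected signal of each array. Alternatives were another background correction and normalization, the value table, other filters and probes, array weights, a replicate block, adult wildtype as control, each array left out, and, chosen after seeing the data, the Xist class.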

Additional observations from a re-analysis of the deposited data

Results flagged for a closer look

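The difference from MCM hearts was not the same at both times. For 51 members it was lower at 1 week than at 72 h and for 3 members it was higher. Of all genes, 22.4% were lower and 23.2% higher. The test was the direct contrast of 1 week with 72 h hearts, in which the shared MCM hearts cancel. The tamoxifen schedule is not given per time point, and its part in this contrast was not tested.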

How the results depend on the processing

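The count of members called at 1 week against MCM (55) was 50 to 62 over 10 alternatives and 51 to 61 over the fits without 1 array. Against 72 h it was 54, with 53 to 58 over 9 alternatives and 50 to 58 without 1 array, and for E14 against adult wildtype it was 45, with 31 (Xist class) to 54 (array weights) over 8 alternatives and 36 to 49 without 1 array. At 72 h the count was 0 under 9 of 10 alternatives and every fit without 1 array, and 1 with adult wildtype as control. For adult wildtype against MCM it was 2, became 1 with no background correction, the authors' value table, detection on all 12 arrays or no filter, 11 with array weights (21.4% of all genes called), whose fit stopped before convergence, and 1 to 4 without 1 array, the 4 without 72 h replicate 2 (13% of all genes). The probe that stood for Mrps12 changed sign with adult wildtype as control, to 0.90 at 72 h (-0.01 against MCM) and 0.56 at 1 week (-0.34 against MCM). The second probe of Mrps12, given above, did not change sign at 1 week. The cause was not tested. Over all values of named genes under alternatives, 2221 kept direction and side of the threshold or were not called in either fit, 39 lost and 14 gained a call, and 2 reversed. The share of all genes called at 72 h was 0.297% in the main setting and 5.34% with array weights. Labels number replicates alike across groups, and the fit with the replicate block called 0 members at 72 h, 55 at 1 week, 55 for 1 week against 72 h and 2 for adult wildtype against MCM. Same-numbered samples correlated at a median of 0.0388 over 15 pairs (-0.0403 to 0.307), against -0.0044 over 30 others. The highest value, 0.307, was that of 72 h replicate 3 with MCM replicate 3. Low correlations cannot exclude pairing, so whether the numbers pair the samples is not known.

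The E14 group is 1 array and adds nothing to the estimate of the spread. The adult wildtype group is 2 arrays, so the spread used for it comes mostly from the other groups. Signals near background, as for Mrpl45 at 1 week, give bounds only.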
